A study of Mus musculus with 12 samples.

Results

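Smooth muscle cells and pericytes form the outer wall of small blood vessels and are together called mural cells. The 10 genes described here were fixed by name as markers of these cells, Acta2, Cnn1, Tagln, Myh11, Mylk, Rgs5, Pdgfrb, Abcc9, Notch3 and Cspg4, and each matched 1 of the 51341 Ensembl genes in the deposited expression table. They were measured by poly A RNA sequencing of the trigeminal ganglion, the sensory ganglion of the face and meninges, in 12 mice of the outbred CD1 stock. Of these, 6 mice were labelled responders and 6 non-responders to PACAP, the pituitary adenylate cyclase-activating polypeptide, a peptide that dilates vessels, and each group held 3 males and 3 females. The title of the series names light aversion as the outcome and asks about inheritance and about CGRP, another vasodilator peptide. The labels name no allele or other agent for any mouse, and the sources used here do not give the age, the scoring of a response or the time between PACAP and dissection.

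In arterioles, smooth muscle cells ring the vessel and contract when a rise in calcium activates the myosin light chain kinase encoded by Mylk. Their filaments contain the smooth muscle actin of Acta2 and the heavy chain of Myh11, with calponin (Cnn1) and transgelin (Tagln) bound to actin. Pericytes sit on capillaries, are recruited by PDGF-B from the endothelium through the receptor of Pdgfrb, and carry Rgs5, a brake on G protein signalling, and Abcc9, the sulfonylurea receptor subunit of the vascular ATP-sensitive potassium channel. Notch3 is the receptor through which mural cells read endothelial ligands, and Cspg4 encodes the proteoglycan NG2, which is also found on oligodendrocyte precursors and some other glia. Opening of this potassium channel relaxes vessels. In bulk tissue, fewer cells of a type and less RNA per cell cannot be told apart.

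Contractile genes of smooth muscle are known to be driven by serum response factor, which binds a short A/T-rich motif called the CArG box. In the RefSeq promoter table for GRCm38.p6, the windows of 250 bases before the start of transcription were searched for 7 of the 10 genes, matched by symbol. Of these, 3 are printed to set 2 contractile genes that varied together in these mice beside the leading pericyte gene. The motif searched was a core of 6 A or T letters between CC and GG on both strands, and a CArG-like match allowed 1 letter of the core to differ. Capitals mark CArG-like matches. The Acta2 window is chr19:34255374-34255623 on the minus strand, the Cnn1 window is chr9:22099003-22099252 on the plus strand, and the Rgs5 window is chr1:169655251-169655500 on the plus strand.
Acta2: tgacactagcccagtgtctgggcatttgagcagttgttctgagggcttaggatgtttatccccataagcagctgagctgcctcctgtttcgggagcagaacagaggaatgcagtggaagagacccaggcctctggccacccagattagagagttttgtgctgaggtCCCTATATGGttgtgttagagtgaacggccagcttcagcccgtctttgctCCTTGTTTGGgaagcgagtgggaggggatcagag
Cnn1: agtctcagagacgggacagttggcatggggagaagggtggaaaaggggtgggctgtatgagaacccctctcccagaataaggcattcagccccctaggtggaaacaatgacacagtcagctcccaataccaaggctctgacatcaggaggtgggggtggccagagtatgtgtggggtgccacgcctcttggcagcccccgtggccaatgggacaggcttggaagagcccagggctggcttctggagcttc
Rgs5: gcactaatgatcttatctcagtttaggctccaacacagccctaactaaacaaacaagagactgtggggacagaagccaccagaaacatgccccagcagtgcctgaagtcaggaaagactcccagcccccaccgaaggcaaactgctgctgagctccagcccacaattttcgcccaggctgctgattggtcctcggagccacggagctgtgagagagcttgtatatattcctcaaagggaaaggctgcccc
The Acta2 window held 2 CArG-like matches, which begin 84 and 34 bases before the start, and 0 exact CArG boxes. Neither form was found in the windows of Cnn1, Rgs5, Mylk, Abcc9, Notch3 or Cspg4. The Mylk window, chr16:34784700-34784949 on the plus strand, lies inside the gene, which begins at 34745210 in GENCODE M21. It therefore precedes an internal start, and the first start of Mylk was not searched. Among 32851 promoter windows of this length, 1.47% held a CArG box and 7.24% a CArG-like match. A match describes the letters of the window and is not evidence of binding, and the absence of a match says only that these letters are not in the window.

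Values are FPKM, which scale fragments to gene length and to library size, so levels of different genes can be set side by side. Rgs5 had the highest mean at 17.4 ± 4.78 FPKM (SD, n = 12), followed by Acta2 at 15.9 ± 9.64 and Tagln at 8.07 ± 3.97. Neighbours in this order lay within the spread between mice, though within each mouse Acta2 stood at 1.54 to 2.42 times Tagln. Mylk at 3.14 ± 1.52, Myh11 at 2.79 ± 1.99, Cspg4 at 2.59 ± 0.482, Notch3 at 2.00 ± 0.486 and Abcc9 at 1.42 ± 0.925 formed a middle range. Neighbours in it again lay within the spread between mice. Cnn1 came next at 0.926 ± 0.786, also within the spread of Abcc9, and Pdgfrb was listed near 0. By mean level over mice, Rgs5 ranked 3243 and Acta2 3524 among all 51341 genes. The spread between mice was widest for Cnn1, whose highest mouse was 14.7 times its lowest, and narrowest for Cspg4, with a ratio of 1.96.

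**Figure D1:**
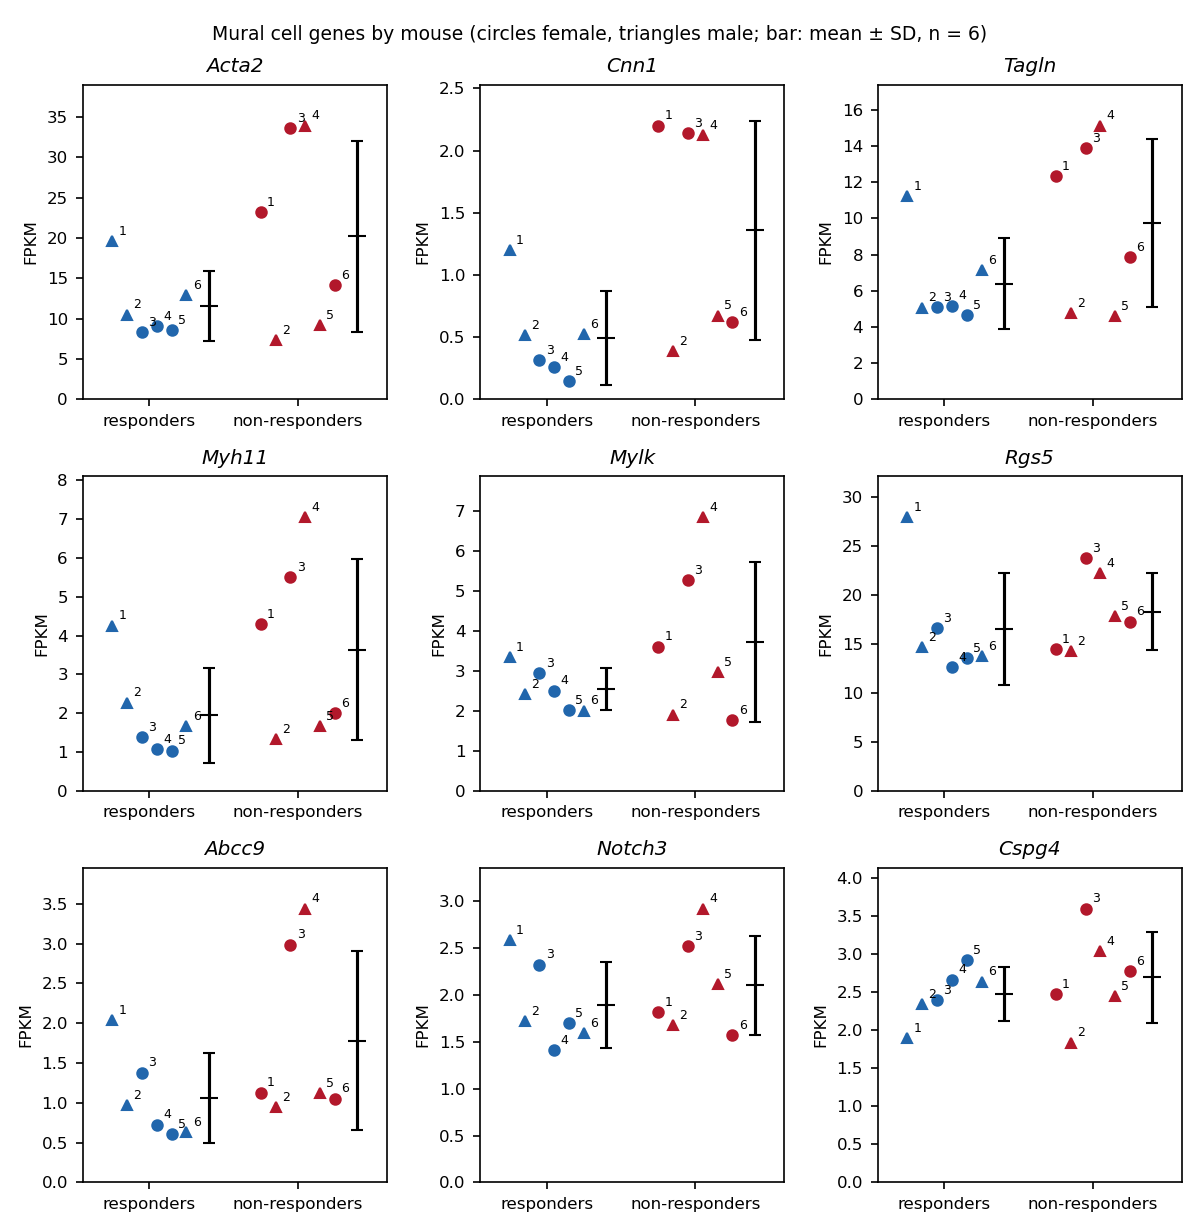
FPKM of 9 of the genes (all but Pdgfrb) in each mouse, by response group, on an axis that starts at 0; numbered points are mice, circles female and triangles male, and the bars show mean ± SD (n = 6). Non-responders 3 and 4 are among the highest 3 mice for every gene shown, and for the 5 contractile genes they are the highest 4 mice together with responder 1 and non-responder 1.

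The genes of the contractile apparatus showed the same few mice at the top. Acta2 ranged in responders from 8.37 FPKM in responder 3 through a median of 9.78 to 19.7 in responder 1, and in non-responders from 7.35 in non-responder 2 through 18.7 to 33.9 in non-responder 4. Tagln, the transgelin gene, ranged from 4.67 through 5.14 to 11.2 FPKM in responders and from 4.6 through 10.1 to 15.1 in non-responders. The groups overlapped for both genes, and 3 non-responders, numbers 1, 3 and 4, lay above every responder. Myh11, the smooth muscle myosin heavy chain, ranged from 1.04 through 1.52 to 4.26 FPKM in responders and from 1.34 through 3.14 to 7.05 in non-responders. Cnn1, or calponin, ranged from 0.15 through 0.417 to 1.20 FPKM in responders and from 0.389 through 1.40 to 2.20 in non-responders. For Mylk, the light chain kinase, the range was 2.01 through 2.47 to 3.35 FPKM in responders and 1.77 through 3.29 to 6.86 in non-responders. Responder 1 and non-responders 1, 3 and 4 were the highest 4 of 12 mice for each of these 5 genes, an arrangement seen in 1.64% of all 14203 genes tested. The 4 mice were picked from the values of these genes, so the share is a description and not a test.

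None of the 4 tested pericyte genes had those same mice as its highest 4. Rgs5 ranged from 12.6 FPKM in responder 4 through 14.2 to 27.9 in responder 1, and in non-responders from 14.2 in non-responder 2 through 17.5 to 23.7 in non-responder 3. Responder 1 was the highest of all mice, and non-responder 1, which was high in every contractile gene, was among the lowest non-responders at 14.4 FPKM. Abcc9, the channel subunit, ranged from 0.608 through 0.851 to 2.04 FPKM in responders and from 0.950 through 1.13 to 3.44 in non-responders, with non-responders 3 and 4 above every responder. Notch3 ranged from 1.41 through 1.72 to 2.59 FPKM in responders and from 1.57 through 1.97 to 2.92 in non-responders. Cspg4 ranged from 1.90 through 2.52 to 2.93 FPKM in responders and from 1.84 through 2.63 to 3.60 in non-responders. It differed from the other genes in that responder 1 was its lowest responder and not its highest.

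Pdgfrb, the PDGF receptor widely used to mark pericytes, was listed at exactly 0 in 6 mice, and its highest value was 0.0546 FPKM in responder 6. It did not enter any test. A set of 172 genes for ribosomal, proteasome, RNA polymerase II, respiratory chain and chaperonin subunits also held very low listings. Of these, 2 were listed at 0 in all mice and 4 stayed under 0.1 FPKM in all mice. Whether the Pdgfrb values are low RNA or a failed estimate was not tested. Pdgfrb is reported here as listed near 0, and the name of the gene group rests on its other members. Cnn2, a calponin gene of many cell types, was listed at 0 in every mouse.

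Non-responders 3 and 4 were both among the highest 3 mice for 9 of the 9 tested genes, against 10.7% of all genes. Responder 1 was the highest responder for 8 of the 9, against 35.2% of all genes. These mice were picked from the values of the same genes, so both shares are descriptions and not tests. The median log2 deviation from each gene's median over mice was 1.08 in non-responder 4, 0.93 in non-responder 3, 0.54 in responder 1 and 0.31 in non-responder 1, and lay between -0.32 and 0.08 in the other 8 mice. The first number in the description of each mouse was never shared between the groups. Its meaning is not given, and what it marks and the response cannot be told apart.

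The first comparison asked whether responders and non-responders differed in the RNA of these genes. None of the 9 tested genes passed an adjusted p of 0.05 with limma, where 0.0211% of all 14203 genes did. The log2 difference of responders minus non-responders, on log2(FPKM + 1), was below 0 for 9 of 9 genes, with a median of -0.38, while 49.3% of all genes were below 0 and their median was 0.0034. Only Cnn1 had an unadjusted p under 0.05, a property of 7.4% of all genes, or 4.17% when counted below 0 alone. No gene had groups that did not overlap, which 0.549% of all genes had. These 9 genes vary together and do not count as separate observations.

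Among the contractile genes, Acta2 averaged 11.5 ± 4.34 FPKM (SD, n = 6) in responders and 20.2 ± 11.8 (n = 6) in non-responders. Its limma difference was -0.61 (SE 0.386, 95% interval -1.46 to 0.24, adjusted p = 0.744). Cnn1 averaged 0.494 ± 0.375 and 1.36 ± 0.879 FPKM, with a difference of -0.60 (SE 0.258, adjusted p = 0.645 with limma). For Myh11 the means were 1.95 ± 1.22 and 3.64 ± 2.34 FPKM, and the difference was -0.58 (SE 0.349). For Tagln they were 6.40 ± 2.51 and 9.75 ± 4.64 FPKM, with a difference of -0.47 (SE 0.314). Mylk had means of 2.55 ± 0.524 and 3.73 ± 2.00 FPKM and a difference of -0.32 (SE 0.25). The SD was larger in non-responders for each of these genes, where mice 1, 3 and 4 lay above the other 3.

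Among the pericyte genes, Abcc9 had a larger difference than Mylk, and the other 3 tested genes had smaller differences than any contractile gene. Abcc9 averaged 1.06 ± 0.560 FPKM in responders and 1.78 ± 1.12 in non-responders, and its difference was -0.38 (SE 0.253, adjusted p = 0.757 with limma). Rgs5 averaged 16.5 ± 5.75 and 18.3 ± 3.93 FPKM, with a difference of -0.17 and a 95% interval from -0.59 to 0.26. The difference was -0.10 (SE 0.134) for Notch3 and -0.08 (SE 0.109) for Cspg4. For Cspg4 the 95% interval ran from -0.32 to 0.16, the narrowest of the 9. Leaving out non-responder 4 alone brought Acta2 to -0.40, Tagln to -0.31, Mylk to -0.14, Abcc9 to -0.23 and Notch3 to -0.03, and leaving out non-responder 3 alone brought Rgs5 to -0.07 and Cspg4 to -0.02. With a pseudocount of 0.1 in place of 1, Cnn1 stood at -1.23 and Abcc9 at -0.63. Without non-responders 3 and 4, left out after the data were seen, the median difference over the tested genes was -0.02, Acta2 stood at -0.15 and Rgs5 at 0.0018. Without responder 1 alone the Rgs5 difference was -0.32 and its adjusted p 0.548 with limma.

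**Figure D2:**
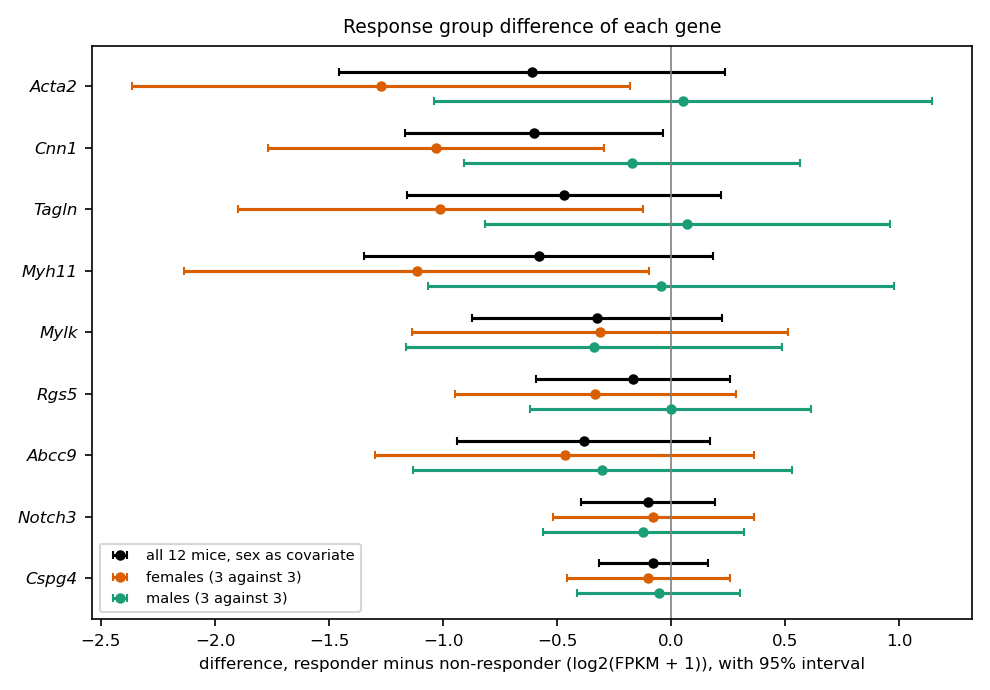
Log2 differences of responders minus non-responders on log2(FPKM + 1) for the 9 tested genes with 95% limma intervals, over all mice and within each sex. Over all mice every estimate lies below 0 and every interval but that of Cnn1 spans 0.

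Response differences were also taken within each sex. In females, Acta2 was 8.66 ± 0.35 FPKM (SD, n = 3) in responders and 23.6 ± 9.74 (n = 3) in non-responders. All 3 female responders lay below all 3 female non-responders for 4 of the 9 genes, Acta2, Cnn1, Tagln and Myh11, an arrangement seen in 9.62% of all genes. In males, Acta2 was 14.4 ± 4.73 FPKM in responders and 16.8 ± 14.8 in non-responders, and 0 of the 9 genes had all 3 male responders below all 3 male non-responders, against 4.59% of all genes. The male non-responders split widely, with 33.9 FPKM in non-responder 4 beside 7.35 and 9.22 in the other two.

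Within females the limma difference was -1.27 (SE 0.491) for Acta2, -1.12 (SE 0.459) for Myh11, -1.03 (SE 0.332) for Cnn1 and -1.01 (SE 0.4) for Tagln. None of the 9 genes passed in females, where 0.00704% of all genes did, and the smallest adjusted p was 0.684, for Cnn1. These 4 genes had an unadjusted p under 0.05, which 6.81% of all genes had in females, 3.68% below 0. All 9 genes lay below 0 there, against 50% of all genes. Among females Mylk differed by -0.31 (SE 0.371) and Abcc9 by -0.47 (SE 0.374). Within males the difference was 0.05 (SE 0.491) for Acta2, 0.07 (SE 0.4) for Tagln, -0.05 (SE 0.459) for Myh11 and -0.30 (SE 0.374) for Abcc9. None of the 9 passed in males, where 0.0141% of all genes did, and 0 had an unadjusted p under 0.05 with limma, against 6.78% of all genes. In males 7 of the 9 lay below 0, against 50.9% of all genes.

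The effect in females minus that in males was -1.32 for Acta2 (SE 0.695, 95% interval -2.87 to 0.22), -1.08 for Tagln (SE 0.565), -1.07 for Myh11 (SE 0.650) and -0.86 for Cnn1 (SE 0.469). Each of these 4 had an adjusted p of 0.836 with limma. No gene of the 9 passed, as 0% of all genes did, and 0 of the 9 had an unadjusted p under 0.05, against 5.01% of all genes. A difference between the sexes in the response effect was therefore not shown. For Mylk the same quantity was 0.03 and for Notch3 0.04.

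Sex itself, with the response group as a covariate, was compared in the same fit. None of the 9 genes passed an adjusted p of 0.05 with limma, where 0.0563% of all genes did, and 0 had an unadjusted p under 0.05, against 4.53% of all genes. The female minus male difference was 0.18 (SE 0.109, 95% interval -0.06 to 0.42) for Cspg4, 0.03 (SE 0.386) for Acta2 and -0.14 (SE 0.194) for Rgs5. Cspg4 averaged 2.81 ± 0.435 FPKM in 6 females and 2.37 ± 0.455 in 6 males.

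Likeness between the 9 genes was measured over the 12 mice as Pearson's r and Spearman's rho of log2(FPKM + 1), with a permutation p adjusted over the 36 pairs. Of the 36 pairs, 28 passed by Pearson's r and 19 by Spearman's rho. The highest r was that of actin with its binding protein: Acta2 and Tagln had r = 0.982 and rho = 0.867, with adjusted permutation p values of 0.00012 and 0.00374. The highest rho was that of Cnn1 with Myh11, at 0.916. The 10 pairs of contractile genes ran from 0.768 to 0.982. The 6 pairs among the 4 tested pericyte genes ran from 0.0958 to 0.908, and 3 of them passed by Pearson's r. Rgs5, Abcc9 and Notch3, called the block of 3 below, had r from 0.863 to 0.908 with each other. Over 12 mice they were not set apart, as Abcc9 had r = 0.905 with Mylk and 0.873 with Myh11. Acta2, Cnn1, Tagln and Myh11 are called the block of 4. Both blocks, which leave out Mylk and Cspg4, were picked after the values were seen, so high r within them is no test. Pairs of a contractile gene with one of the 4 pericyte genes ranged from 0.30 to 0.905, with Mylk and Abcc9 at the top. Cspg4 passed with 0 of its 8 partners.

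The likeness between the blocks depended on which mice were included. Responder 1 and non-responders 3 and 4 had the highest median deviations for these genes. Leaving them out narrows the values and can lower r in itself, so it is no independent check of the blocks. Without responder 1 and non-responders 3 and 4, r over the remaining 9 mice stayed between 0.832 and 0.969 among Acta2, Cnn1, Tagln and Myh11, while Mylk with these 4 ran from 0.311 to 0.605, and it stayed between 0.661 and 0.753 among Rgs5, Abcc9 and Notch3. Between the block of 4 and the block of 3 it ran from -0.162 to 0.423, with Acta2 and Rgs5 at 0.0375 in place of 0.674. Only 2 of the 36 pairs, Acta2 with Tagln and Cnn1 with Myh11, then passed. Leaving out non-responder 1 as well, chosen after the data were seen, brought the block of 4 to between 0.441 and 0.906, the block of 3 to between 0.674 and 0.812 and the pairs between them to between -0.405 and 0.649, so that these ranges overlapped. Mylk with the 4 then lay between -0.55 and 0.0244, and 0 pairs passed over 8 mice. Leaving out the 2 mice farthest from the median of the first gene gave 0.976 for Acta2 and Tagln and 0.893 for Rgs5 and Abcc9. Between the blocks it gave lower values for the pairs of Acta2, such as 0.448 with Rgs5, but higher ones for Cnn1, with 0.909 for Abcc9, 0.812 for Rgs5 and 0.773 for Notch3, where the mice left out were non-responders 1 and 3.

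**Figure D3:**
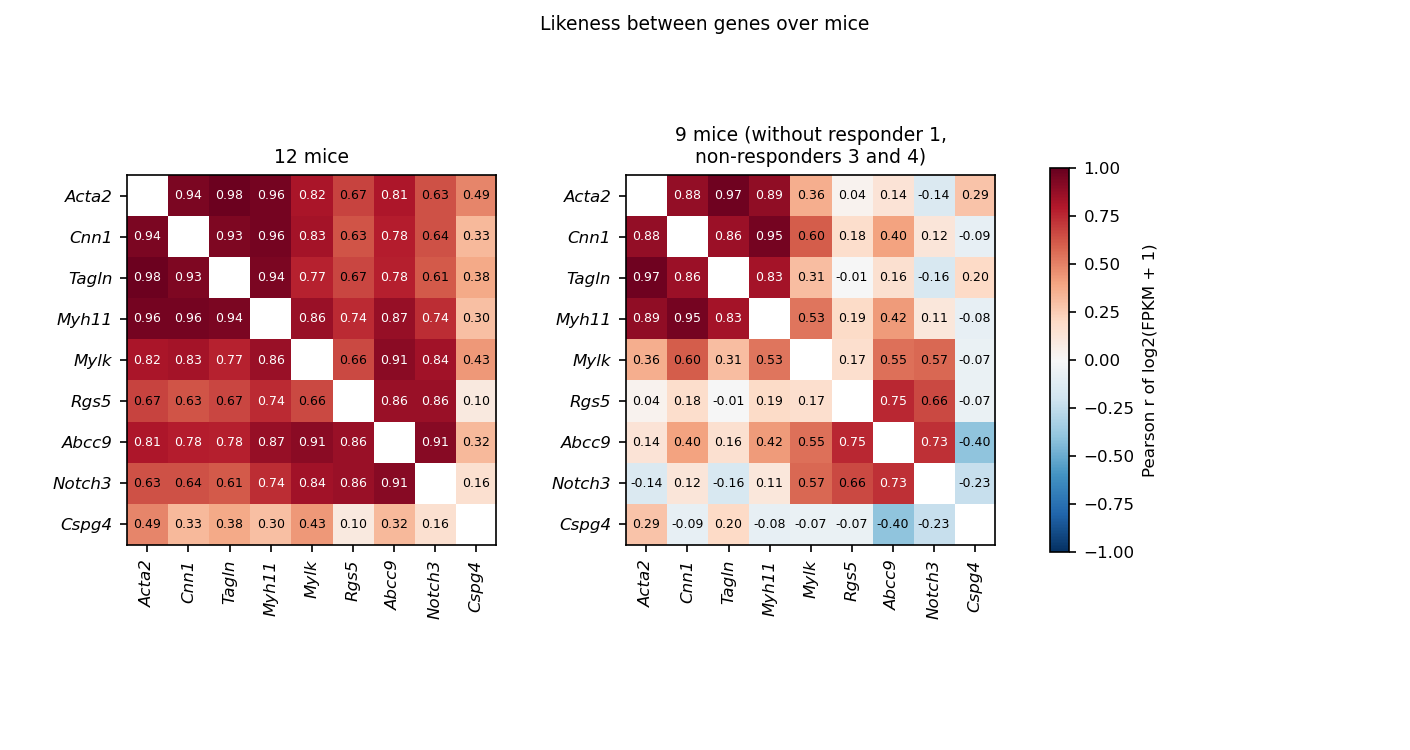
Pearson r between the 9 tested genes over all mice and over the 9 mice left without responder 1 and non-responders 3 and 4, colored from -1 to 1. In the smaller set r lies between 0.832 and 0.969 among Acta2, Cnn1, Tagln and Myh11 and between 0.661 and 0.753 among Rgs5, Abcc9 and Notch3, between 0.311 and 0.605 for Mylk with the first 4, and between -0.162 and 0.423 between the blocks.

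Cspg4 stood apart within the responders. Its r with the other 8 genes lay between -0.938 and -0.761 over the 6 responders, where responder 1 was its lowest mouse and the highest mouse of every partner. Over the 6 non-responders it lay between 0.657 and 0.888. No p is given for these ranges, which come from the same few mice. Of all tested protein-coding genes outside the 10, the 3 most like Cspg4 over the 12 mice were Clic4, Cavin1 and Map3k20, with r of 0.906, 0.898 and 0.877.

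By the same measure the genes most like Rgs5 were Kcnj8, Loxl1 and Oat, with r of 0.979, 0.968 and 0.965 over 12 mice. Kcnj8 encodes the pore of the potassium channel whose regulatory subunit is Abcc9, and the genes are neighbours on chromosome 6, with 16247 bases between Kcnj8 at chr6:142564837-142571614 and Abcc9 at chr6:142587862-142702315, both on the minus strand of GRCm38. Kcnj8 was 3.16 FPKM in responder 1, 2.44 and 2.48 in non-responders 3 and 4, and between 0.862 and 1.65 in the other mice. The genes most like Acta2 were Sh3bgrl, mt-Atp8 and Ccng1, with r of 0.968, 0.960 and 0.957. These are genes of many cell types, and none is a smooth muscle marker. Each r was picked as the largest among all tested genes and is a description.

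The balance of contractile to pericyte RNA was described by the ratio of Acta2 to Rgs5. It ran from 0.505 through a median of 0.710 to 0.946 in responders and from 0.516 through 1.12 to 1.61 in non-responders. The ranges overlapped, and the ratios of non-responders 1, 3 and 4 lay above every responder. The ratio of Acta2 to Tagln was steadier, between 1.64 and 2.07 in responders and between 1.54 and 2.42 in non-responders.

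Other parts of the contractile machinery were read from lists of known genes. Of 23 further smooth muscle genes, 19 were tested, 17 had a difference below 0 and 2 above, the median was -0.19 and 0 passed. Myl9, the regulatory light chain on which the kinase of Mylk acts, was 24.3 ± 3.05 FPKM in responders and 39.3 ± 10.9 in non-responders, a difference of -0.64 (adjusted p = 0.445 with limma). It was highest in non-responders 4 and 3, at 57.1 and 46.3 FPKM. Lmod1, a leiomodin of smooth muscle filaments, differed by -0.54, and Tpm1, a tropomyosin shared with striated muscle, by -0.52.

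Genes that set light chain phosphorylation lay near 0 as a list, with 4 of 10 tested members above 0, 6 below and a median of -0.09. None of them passed. Of serum response factor and its cofactors 4 of 6 were tested, and Srf itself was 9.80 ± 1.27 and 10.4 ± 1.91 FPKM. Myocd, the smooth muscle cofactor myocardin, stayed under 0.1 FPKM in every mouse. Klf4, a factor that represses contractile genes, differed by -0.26 between the groups (adjusted p = 0.766 with limma). It was 4.63 FPKM in non-responder 3 and 4.74 in non-responder 4, against 2.28 in non-responder 1, mice picked after the values were seen.

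Signals to pericytes come in part from PDGF. All 4 tested genes of the PDGF list had a difference below 0, with a median of -0.32 and 0 passing. The ligand gene Pdgfb was 3.29 ± 0.498 FPKM in responders and 4.40 ± 1.03 in non-responders, with a difference of -0.32, and Pdgfra, the receptor of fibroblasts, differed by -0.69 (adjusted p = 0.602 with limma). In the Notch pathway outside Notch3, 14 genes were tested, 10 lay below 0 and 4 above, and the median was -0.07. Its target Hes1 differed by -0.29 and the receptor Notch2 by -0.26, while the target Hey1 differed by 0.17. Of 16 tested angiopoietin and TGF-beta genes, 12 lay below 0 and 4 above, with Eng, a coreceptor of endothelium, at -0.36 and Acvrl1, its partner receptor, at 0.40. None of these genes passed.

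The potassium channel paralogs and the RGS family gave no called gene. Kcnj8 differed by -0.15, Kcnj11, the pore gene of neurons and islets, by -0.22 and Abcc8, the paralog of Abcc9, by 0.13. Of 6 tested paralogs of Rgs5, 4 lay above 0 and 2 below, with Rgs4 at 0.18 and Rgs18, a gene of blood cells, at -0.74.

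A further list of 20 pericyte genes was summed in each mouse beside the 10 genes, whose sums overlapped, lying between 35.2 and 74.1 FPKM in responders and between 34.5 and 96.7 in non-responders. Summed over the further list, responders lay between 80.9 and 112 FPKM and non-responders between 121 and 175, with no overlap, and 13 genes were tested, of which 10 lay below 0 and 3 above, with a median of -0.25 and 0 passing. Vtn, or vitronectin, was 11.8 ± 3.41 FPKM in responders and 23.3 ± 10.2 in non-responders, a difference of -0.87 (adjusted p = 0.445 with limma). Art3 was 27.7 ± 6.17 and 40.9 ± 7.68 FPKM, a difference of -0.55, and Ifitm1 was 3.32 ± 0.451 and 7.35 ± 4.49 FPKM, a difference of -0.82. The mean sums were 103 ± 11.5 and 141 ± 24.0 FPKM, and Art3 and Vtn made up most of that gap. The sum did not follow Rgs5 or Kcnj8. Responder 1, the highest mouse for both genes, had the lowest sum, 80.9 FPKM. Non-responder 6, with Rgs5 at 17.2 FPKM, had 168 FPKM, next after non-responder 3. How often sums of other gene sets fail to overlap was not determined. P2ry14, a purinergic receptor gene of the same list, was 1.79 ± 0.388 FPKM in responders and 1.26 ± 0.343 in non-responders, a difference of 0.31 in the other direction (adjusted p = 0.640 with limma). The pericyte genes Higd1b, Atp13a5 and Ndufa4l2 were listed at 0 in most mice.

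**Figure D4:**
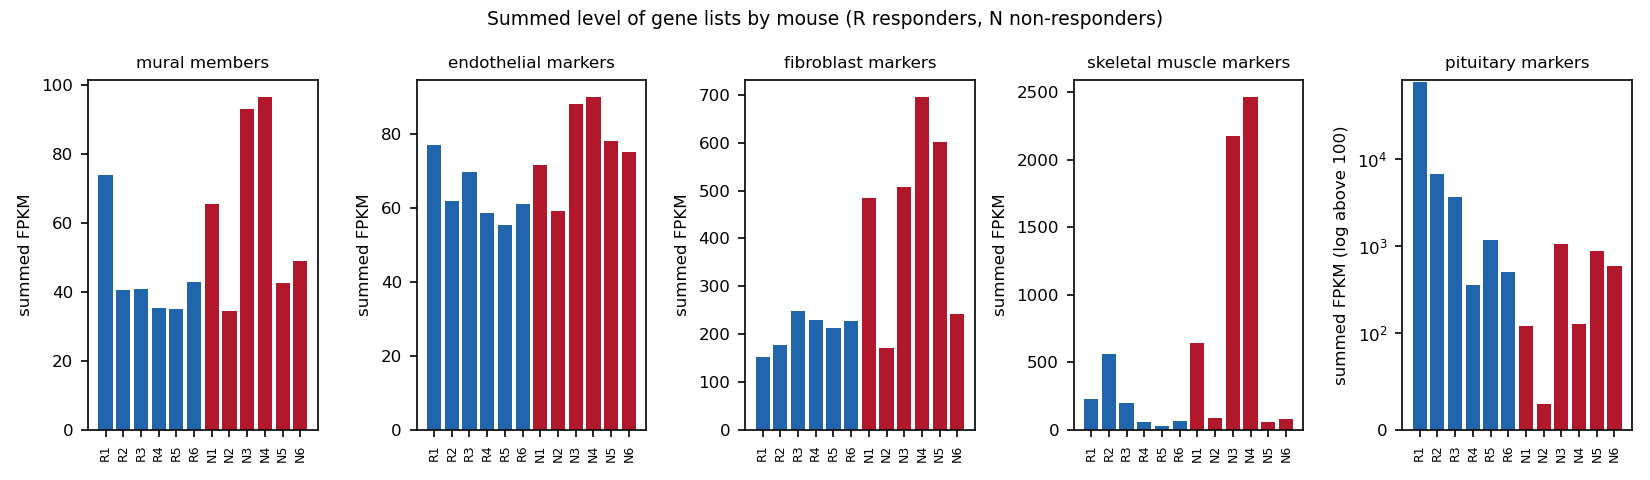
Bars give the summed FPKM of 5 gene lists in each mouse, responders (R) in blue and non-responders (N) in red, on axes from 0 that are linear except for the pituitary list, which is logarithmic above 100. The list titled mural members is the 10 genes described here. The sums of this list and of the endothelial, fibroblast and skeletal muscle lists are highest in non-responder 4, and the pituitary sum is highest in responder 1.

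Markers of other tissues moved with the mice that led the contractile genes. The skeletal muscle list summed to 2468 FPKM in non-responder 4, 2178 in non-responder 3, 642 in non-responder 1 and 565 in responder 2, and to at most 230 in the others, and 11 of its 11 tested genes lay below 0. Actc1, the actin of heart and of developing skeletal muscle, was 42.0 and 40.8 FPKM in non-responders 3 and 4, 8.44 in non-responder 1 and 3.21 in responder 1, and at most 1.21 in the other mice. These are the mice that were highest for the 5 contractile genes, and the part of these tissues in that result was not tested. The heart markers Myh6, Tnnt2, Nppa and Myl7 stayed under 1 FPKM in all mice.

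Other vessel and nerve cells were also uneven. The fibroblast list lay between 152 and 248 FPKM in responders and between 172 and 696 in non-responders, with 10 of 11 tested genes below 0, a median of -1.04 and 9 below 0 with an unadjusted p under 0.05, against 4.17% of all genes, and 0 passed. The endothelial list, the cells that mural cells wrap, lay between 55.5 and 77.0 FPKM in responders and between 59.2 and 90.2 in non-responders, with 11 of 12 genes below 0 and a median of -0.19. Pecam1, its defining adhesion gene, was 3.63 ± 1.24 and 5.73 ± 2.72 FPKM. The Schwann cell myelin list had 6 of 7 genes below 0 and a median of -0.54. Sensory neuron markers, which define the labelled tissue, summed to between 2766 and 5849 FPKM, and of the 13 tested 11 lay above 0 and 2 below, with a median of 0.075. In females 13 of 13 lay above 0, with a median of 0.25, and in males 3 of 13, with a median of -0.09. The neutrophil list was highest in non-responder 4, at 4275 FPKM. The part of these cells in the values of the 10 genes was not tested.

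Responder 1, whose Rgs5 was the highest of all mice, had 77911 FPKM summed over the pituitary list, where the next mouse, responder 2, had 6850. The part of that tissue in the Rgs5 value was not tested. Total FPKM per mouse ran from 286388 to 358590, with the highest total in responder 1 and the next, 332367, in non-responder 4. Responder 1 also had the lowest depth implied by the smallest steps of the values, 17800000 fragments, and non-responder 4 the highest, 39850000. These depths are loose estimates. Of the values used, 25.8% in responder 1 and 21.5% in non-responder 4 lay within 0.05 of a whole fragment, where 10% would by chance. The part of depth in the values of these mice was not tested. Markers of oligodendrocyte precursors, which also carry NG2, summed to between 11.7 and 41.0 FPKM in responders and between 15.0 and 41.8 in non-responders. The part of these cells in the Cspg4 values was not tested.

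Some values rest on gene models that share sequence. Tagln overlaps the antisense gene Gm48529, which averaged 2.70 FPKM and matched Tagln over 647 bases at 100% identity. Notch3 overlaps the antisense gene Gm17276, with 333 bases at 100% identity and a mean of 0.613 FPKM. Mylk overlaps the antisense gene E130310I04Rik, with 222 bases at 99.1% identity and a mean of 0.045 FPKM. Tagln also overlaps the protein-coding gene Pcsk7 on the opposite strand by 108 bases, and Pcsk7 averaged 5.39 FPKM. Whether the counting used strand is not given, so reads of these pairs cannot be told apart. No other gene matched Acta2, Cnn1, Myh11, Rgs5, Pdgfrb, Abcc9 or Cspg4 at 90% identity or more over at least 200 bases.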

How the data were processed

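The authors deposited 1 table with a value per Ensembl gene and mouse. These FPKM values were made by the authors before they deposited them; the submitters' processing notes list StringTie 1.3.5, STAR 2.6.0a and the builds GRCm38 and mm10, without roles. The header names no unit, and FPKM was inferred from the values. The sources used here give no settings, annotation release or strand use. Whole fragments could not be recovered, and the depth implied by the smallest steps was 17800000 to 39850000 fragments per mouse. The fit was loose: 14.9% to 29.6% of the values used lay within 0.05 of a whole fragment, where 10% would by chance.

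The 14203 genes that reached 1 FPKM in 3 or more mice were analysed on the log2(FPKM + 1) scale by limma 3.58.1 under R 4.3.3, with sex as covariate and 9 residual degrees of freedom. Effects within each sex and their difference came from 4 cell means. Adjusted p values are Benjamini-Hochberg over all genes tested, 2-sided, threshold 0.05; fold changes of low genes are understated. Likeness used 100000 permutations. The plan named more pairs, but Pdgfrb could not enter, which left 36; it also has no most similar genes. Up to 3 genes with the smallest p were named per list, and other genes were chosen after their values were seen. A gene that this rule would name is not reported here. Gene names and coordinates came from GENCODE M21. Transcripts were compared with blastn 2.17.0.

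The genes and lists were chosen with earlier results of these data known. Each mouse was 1 sample. The limma procedure was tested on simulated data. Alternatives covered the pseudocount, filter, moderation, weights, scaling, covariate, block and omitted mice.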

Additional observations from a re-analysis of the deposited data

Results flagged for a closer look

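In 18 checked groups of 6 mice, 1 per tested gene and response group, 2 had a highest mouse far from the rest. The rule flags about 1 of 20 groups by chance when values are normal and groups are independent. These genes vary together, so that rate does not describe these groups. Both flags were in responders and both were responder 1, so they are not separate observations. Its Rgs5 was 27.9 FPKM, where the next responder had 16.6 and the lowest 12.6, so that the gap took 0.742 of the range, above Dixon's 95% critical value for 6 samples. Its Cnn1 was 1.20 FPKM, where the next responder had 0.522 and the lowest 0.15, a gap of 0.645 of the range. Responder 1 also had the highest sum of pituitary genes. The part of that tissue in these values was not tested.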

How the results depend on the processing

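No tested member passed an adjusted p of 0.05 in any of the 24 alternatives to the comparison of responders with non-responders, and with 1 mouse left out at a time the median difference ran from -0.51 to -0.23. Without non-responders 3 and 4 the median was -0.0196, with Mylk at 0.012, Rgs5 at 0.0018, Notch3 at 0.038 and Cspg4 at 0.041, while Cnn1 no longer passed the filter on low values. Without responder 1 and non-responders 3 and 4, Cspg4 was at 0.079. The number of pairs passing was 28 over 12 mice, 2 without those 3 mice and 0 without non-responder 1 as well. All genes called were 3, and 1 to 6 over the alternatives.

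With the title number as a replicate block, 0 members passed, Acta2 kept -0.61 with an adjusted p of 0.718 (limma), and 1 gene of the whole table passed. Same-numbered mice correlated between -0.273 and 0.133, so that the numbers are not taken to pair mice.

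Directions near 0 turned when 1 mouse was left out, and the cause was not tested. The log2 differences ran, for female minus male, Acta2 -0.21 to 0.24, Cnn1 -0.20 to 0.086, Tagln -0.13 to 0.22, Mylk -0.18 to 0.13, Rgs5 -0.24 to 0.012, Abcc9 -0.26 to 0.049 (Mylk 0.017 as TPM); within males, Acta2 -0.34 to 0.69, Cnn1 -0.41 to 0.17, Tagln -0.19 to 0.57, Myh11 -0.37 to 0.52, Mylk -0.65 to 0.065, Rgs5 -0.31 to 0.18, Abcc9 -0.56 to 0.073, Notch3 -0.27 to 0.024, Cspg4 -0.19 to 0.068; within females, Notch3 -0.21 to 0.051, Cspg4 -0.19 to 0.014; and for the effect in females minus that in males, Mylk -0.38 to 0.34, Abcc9 -0.54 to 0.15, Notch3 -0.10 to 0.19, Cspg4 -0.17 to 0.086. The implied depth, itself a loose estimate, differed between mice, and no counts were at hand. Low values such as those of Cnn1 and Abcc9 are therefore the least precise.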
